A study of Homo sapiens with 2 samples.

Results

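Ribosome biogenesis factors are the proteins that transcribe, modify, cut and fold ribosomal RNA in the nucleolus and assemble it with ribosomal proteins into the small (40S) and large (60S) subunits. The 44 genes described here were chosen by name from a list of nucleolar processing factors that left out RNA polymerase subunits and DEAD-box helicases. They, and the lists set beside them below, were chosen with earlier results of these data known. They were found among 18786 gene symbols with a value in both libraries. All 44 had exactly 1 row in each library's file, and all 44 had a mean level of at least 1 FPKM (fragments per kilobase of transcript, scaled to the number of mapped fragments). The study sequenced RNA from A549, an established human lung adenocarcinoma line grown in DMEM with fetal bovine serum. Cells that stably carried the retroviral vector (vector, 1 library) were compared with cells that stably carried retroviral ATOH8 (ATOH8, 1 library), and the labels used here do not state whether either was a clone. ATOH8 is a helix-loop-helix transcription factor of the basic class, and the series title places the comparison in the control of cell proliferation. With 1 library per group, no spread between replicates could be measured, and every difference below is a difference between these 2 libraries, with no test of the conditions.

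A ribosome begins as a long precursor RNA made by RNA polymerase I. Small nucleolar ribonucleoproteins (snoRNPs) methylate or pseudouridylate this precursor, a large particle called the small subunit processome folds and cleaves its 5′ part, and a separate series of factors builds the large subunit around the rest. Proliferating cancer cells are known for large nucleoli and high levels of these factors.

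Where 2 FPKM values are given for a gene, the first is that of the vector library and the second that of the ATOH8 library. ATOH8 itself was at 0.786 and 182 FPKM. Of 6 epithelial markers, all were listed in both libraries and summed to 5849 and 5840 FPKM. Single markers differed more than the sum, with KRT7 at 965 and 1470 FPKM, KRT18 at 2486 and 2012 FPKM, KRT8 at 2381 and 2302 FPKM and CDH1 at 15.4 and 54.1 FPKM. KRT19 was at 0.219 and 0.0700 FPKM and EPCAM at 1.70 and 2.23 FPKM. The 4 fibroblast markers summed to 0.756 and 0.707 FPKM, and the 3 endothelial markers were listed only for the ATOH8 library, at a sum of 0.0694 FPKM. The 4 leukocyte markers summed to 2.27 and 15.6 FPKM, almost all of it CD68 (2.14 and 15.4 FPKM), with PTPRC at 0.0111 FPKM or unlisted and CD3E unlisted. In RNA from bulk cultures, fewer cells expressing a gene and less of its RNA per cell cannot be told apart. Folds are log2(ATOH8 + 1) minus log2(vector + 1), which understates the change of low genes. The median gene with a mean of at least 5 FPKM had a log2 fold of -0.36, and all folds below are relative to that median gene unless stated otherwise. A gene is called at least 2-fold lower or higher when its relative log2 fold reaches -1 or 1.

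Every one of the 44 genes had a lower FPKM in the ATOH8 library, where 64.7% of the 12342 compared genes (mean FPKM of at least 1) did. Relative to the median gene 43 of 44 were lower, against 47% of compared genes. At least 2-fold lower were 29 of 44, against 9.46% of compared genes, and 0 of 44 were at least 2-fold higher, against 12.8%. The median relative log2 fold was -1.14 for the members and 0.06 for compared genes. With the FPKM as deposited, 36 of 44 were at least 2-fold lower, against 19% of compared genes, at a median of -1.50, and 0 were at least 2-fold higher, against 6.24%. With a pseudocount of 5 in place of 1, which shrinks the folds of low genes, 18 of 44 were at least 2-fold lower, against 4.25% of compared genes, at a median of -0.88. The summed level of the 44 genes was 3835 FPKM for vector and 1473 FPKM for ATOH8, a ratio of 2.60. The median member stood at 29.9 and 9.23 FPKM. NPM1 held the highest level in both libraries and RRP15 the lowest.

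**Figure D1:**
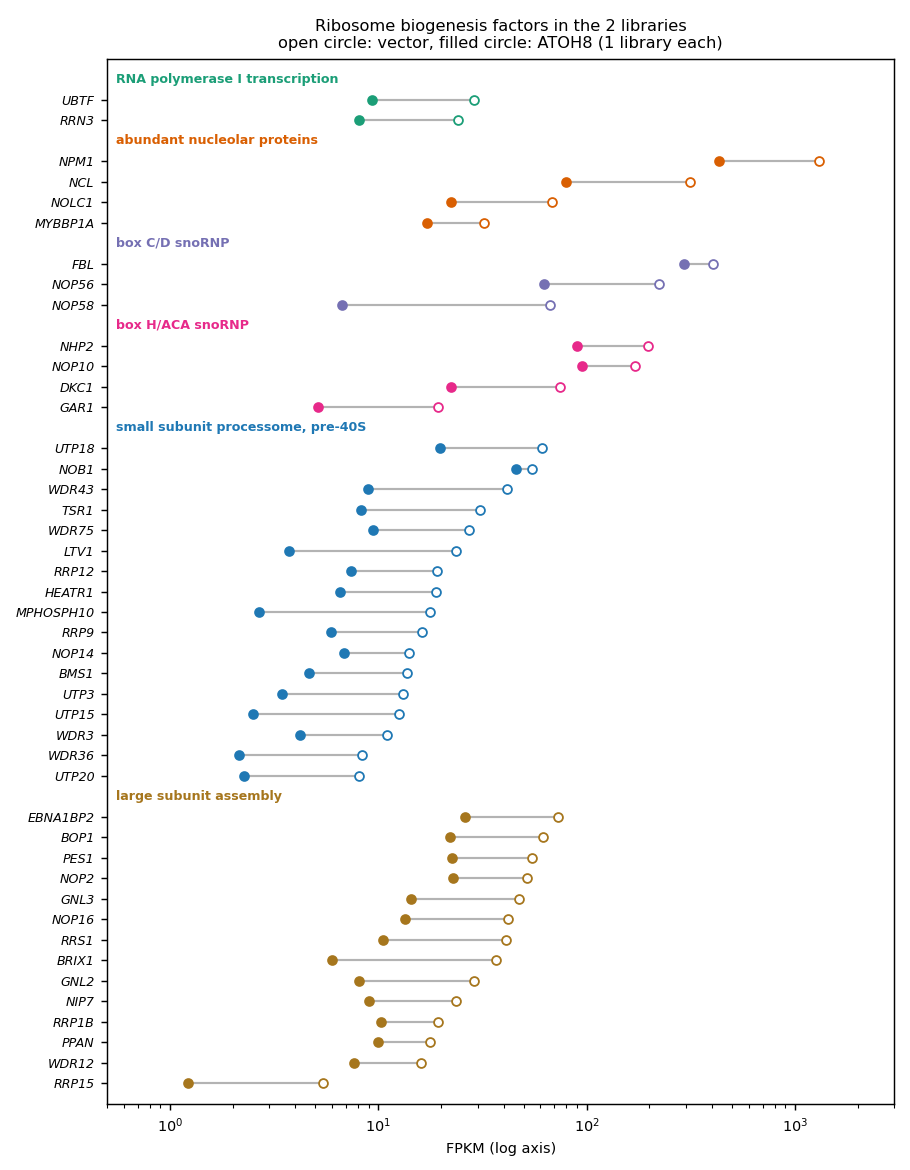
FPKM of each of the 44 genes on a log axis, in the vector library (open circles) and the ATOH8 library (filled circles), 1 library each, grouped by role and ordered by vector level. Every filled circle lies left of its open circle, with the widest gap at NOP58 (66.5 and 6.68 FPKM) and the narrowest at NOB1 (54.6 and 46.0 FPKM).

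The promoters of these genes held 2 short motifs at a higher share than the promoters of compared genes, and stretches that carry them are shown as examples. These shares are a description with no test. RefSeq (GRCh38.p14) gave windows from 250 bases before to 50 bases after an annotated start for 37 of the 44 genes. Some genes had several starts, and a gene counted as holding a motif if any of its windows did. Shares of genes therefore also depend on the number of windows per gene, which was not matched. NOLC1, NOP58, MPHOSPH10, RRP12, RRP1B, RRS1 and BOP1 had no entry. CACGTG, which reads the same on both strands, is 1 form of the E-box CANNTG that basic helix-loop-helix factors recognise. It was present in windows of 15 of 37 members (40.5%), against 12.9% of 9005 compared genes with a window and 7.26% of all 35116 windows. CAGCTG, another form of the E-box, was in 9 of 37 members (24.3%) and 21.9% of compared genes. The wider form CANNTG, which includes both, was in 29 of 37 members (78.4%) and 66.4% of compared genes. Which form ATOH8 binds was not tested. CCGGAAG, the core recognised by ETS family factors (searched on both strands, CTTCCGG on the other), was in 17 of 37 (45.9%) against 23.3% of compared genes. At least 1 of CACGTG and CCGGAAG was present in 25 of 37 members (67.6%), against 33.2% of compared genes. GGGCGG, a GC box, was in 30 of 37 members (81.1%) and 78.6% of compared genes. Of 18 CACGTG matches in the members' windows, 15 (83.3%) lay within 50 bases of the start, against 38.7% of the 1425 matches in windows of compared genes. Matches were counted window by window, so a site in overlapping windows was counted in each of them.
The stretches below are 30 bases each, 5′ to 3′ on the gene's strand, with CACGTG in capitals. The first 5 are the members with this motif that had the lowest folds, and the last 2 those with the highest. Positions count from 1 at the first transcribed base of the start that defines the window, with negative numbers before it.
LTV1, chr6:143843354-143843383, plus strand, match at 29: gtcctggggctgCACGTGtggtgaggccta
WDR43, chr2:28894658-28894687, plus strand, match at 4: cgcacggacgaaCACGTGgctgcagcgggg
GAR1, chr4:109815781-109815810, plus strand, match at 32: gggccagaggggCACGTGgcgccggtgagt
GNL2, chr1:37595917-37595946, minus strand, match at 4: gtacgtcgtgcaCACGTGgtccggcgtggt
GNL3, chr3:52686026-52686055, plus strand, match at 7: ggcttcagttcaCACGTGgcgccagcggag
NOP10, chr15:34343130-34343159, minus strand, match at -11: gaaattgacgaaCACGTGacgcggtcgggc
FBL, chr19:39846356-39846385, minus strand, match at 7: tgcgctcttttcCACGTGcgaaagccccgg
The next 4 stretches show CCGGAAG, or CTTCCGG where it lies on the other strand, in capitals. They come from 4 of the 11 members with this motif that were at least 2-fold lower. It was also present in windows of members closer to the median gene, among them FBL (-0.11), PPAN (-0.40) and NOP10 (-0.47), not shown here.
BRIX1, chr5:34915594-34915623, plus strand, match at -105: gcgccaccgagaCCGGAAGgaggcggcaca
LTV1, chr6:143843269-143843298, plus strand, match at -57: gagcctatgtaaCTTCCGGtcgcgacccat
TSR1, chr17:2336468-2336497, minus strand, match at -28: ccttggaggggaCCGGAAGcgcttgtcctg
UTP3, chr4:70688499-70688528, plus strand, match at -21: gcatgctgggggCCGGAAGgaagaggaaat
The 250 bases before the start of UTP20 are given as a longer example, with CACGTG in capitals 10 bases before the start.
UTP20, chr12:101279855-101280104, plus strand: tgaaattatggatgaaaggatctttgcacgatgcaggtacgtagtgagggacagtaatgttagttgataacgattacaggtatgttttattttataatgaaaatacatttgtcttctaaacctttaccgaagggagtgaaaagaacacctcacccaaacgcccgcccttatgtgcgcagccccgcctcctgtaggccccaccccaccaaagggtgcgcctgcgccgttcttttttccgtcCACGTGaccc
A motif match is a description of letters and was not tied to binding of any factor. The median folds of members with and without either motif were close. A smaller share of members with CACGTG than of those without it passed the 2-fold rule. Among all compared genes, 9.46% were at least 2-fold lower. For CACGTG the median relative log2 fold was -1.08 in the 15 with a match, 8 of them at least 2-fold lower, and -1.17 in the 22 without, 16 of them at least 2-fold lower. For CCGGAAG it was -1.17 in the 17 with a match, 11 of them at least 2-fold lower, and -1.09 in the 20 without, 13 of them at least 2-fold lower. MYC, whose protein binds CACGTG with MAX and is known to drive ribosome biogenesis, was at 54.5 and 41.9 FPKM, a relative log2 fold of -0.01. As deposited its log2 fold was -0.37, beside -0.36 for the median gene, and it was -0.34 after a correction for GC content. MYC protein was not measured, and its part in the members' folds was not tested.

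The 2 factors that start RNA polymerase I transcription were both at least 2-fold lower, a call that UBTF kept and RRN3 lost after correction for GC content. UBTF (ENSG00000108312), which encodes the factor UBF that keeps ribosomal DNA open and engages the promoter, was at 28.9 and 9.38 FPKM, a relative log2 fold of -1.16. RRN3 (ENSG00000085721), which encodes TIF-IA, the bridge between RNA polymerase I and the promoter complex, was at 24.3 and 8.05 FPKM (-1.12). After a correction for the GC content of transcripts, described further on, UBTF was at -1.53 and RRN3 at -0.70, and with a pseudocount of 5 they were at -0.96 and -0.89. In the authors' deposited table of their own comparison, UBTF was marked down with a q-value of 9.48e-06, and RRN3 was not in that table. The polymerase and its other factors had smaller differences in the median. Among 14 measured RNA polymerase I subunits and initiation factors the median was -0.69. By at least 2-fold, 2 genes were lower, against 9.46% of compared genes, and 0 higher, against 12.8%. The 2 were the subunit gene TWISTNB (8.46 and 1.95 FPKM, -1.32) and the selectivity factor gene TAF1B (13.6 and 4.60 FPKM, -1.03). After the GC correction neither of them passed (-0.64 and -0.47), and 1 other gene of the list did. The termination factor gene TTF1 (-0.89) and TAF1A (-0.82) followed.

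The abundant nucleolar proteins were all lower, 3 of the 4 by at least 2-fold, against 9.46% of compared genes. NPM1 (ENSG00000181163, chromosome 5, 171387116 to 171411137, plus strand, GRCh38), which encodes nucleophosmin, a chaperone of the outer nucleolus that carries ribosomal particles and histones, was at 1300 and 432 FPKM (-1.23). GENCODE names 45 pseudogenes of NPM1, so its value depends on how reads were assigned among near-identical copies. NCL (ENSG00000115053, chromosome 2, 231453531 to 231483641, minus strand), which encodes nucleolin, a protein that binds the nascent precursor RNA, was at 313 and 79.95 FPKM (-1.60). NCL was thus furthest down of the 4. NOLC1, which encodes a phosphoprotein chaperone of snoRNPs, was at 68.3 and 22.3 FPKM (-1.21). MYBBP1A, which encodes a nucleolar repressor and processing factor, was at 32.2 and 17.1 FPKM (-0.52). After the GC correction MYBBP1A passed the 2-fold rule (-1.07) and NPM1 did not (-0.96). The authors' deposited table marked NPM1, NCL and NOLC1 down, with q-values of 1.62e-10, 2.36e-05 and 5.88e-09.

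The box C/D snoRNP, which methylates ribosomal RNA, showed the widest spread of any group. Its core holds the methyltransferase fibrillarin and the paired scaffold proteins NOP56 and NOP58. NOP58 (ENSG00000055044, chromosome 2, 202265716 to 202303666, plus strand) was at 66.5 and 6.68 FPKM, a ratio of 9.95 and a relative log2 fold of -2.78. NOP58 had the third lowest fold of all 12342 compared genes. NOP56 (ENSG00000101361) was at 223 and 62.5 FPKM (-1.46). FBL (ENSG00000105202), the fibrillarin gene, was at 406 and 292 FPKM (-0.11), close to the median gene, or -0.58 after the GC correction. The FPKM of NOP56 was 3.35 times that of NOP58 in the vector library and 9.35 times in the ATOH8 library, and that of FBL was 6.10 and 43.7 times. SNU13, the RNA-binding subunit of the same particle, was at 58.4 and 39.7 FPKM (-0.18). In the authors' deposited table NOP58 was marked down with a q-value of 1.77e-06 and NOP56 with 1.47e-07, and FBL was not listed there.

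In the box H/ACA snoRNP, which converts uridine to pseudouridine and also binds telomerase RNA, 2 of the 4 subunits were at least 2-fold lower. The share among compared genes was 9.46%. GAR1 was at 19.5 and 5.12 FPKM (-1.38). DKC1, the gene of the pseudouridine synthase dyskerin, was at 74.9 and 22.4 FPKM (-1.34). Both were at least 2-fold lower, and the authors' deposited table marked both down (q-values of 0.00401 and 0.00859). The small subunits NHP2 (197 and 90.3 FPKM, -0.75) and NOP10 (171 and 95.4 FPKM, -0.47) were lower by less than 2-fold relative to the median gene. NHP2 joined the other pair on other scales, at -1.19 after the GC correction and -1.11 as deposited, while NOP10 was at -0.54 after the GC correction. GAR1 had the lowest level of the 4 in both libraries, and the FPKM of NOP10 was 8.76 times that of GAR1 in the vector library and 18.6 times in the ATOH8 library.

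Of 17 genes of the small subunit processome and the pre-40S particle, 12 were at least 2-fold lower, against 9.46% of compared genes. Their median was -1.11, with a range from -2.01 to 0.12. After the GC correction 8 of the 17 passed, against 5.98% of compared genes. The earliest-binding module, UtpA, was represented by WDR43, UTP15, WDR75 and HEATR1. WDR43 was at 41.7 and 8.95 FPKM (-1.74), and UTP15 at 12.5 and 2.49 FPKM (-1.59). WDR75 (27.2 and 9.46 FPKM, -1.07) and HEATR1 (19.0 and 6.56 FPKM, -1.05) were closer to the 2-fold line. All 4 of this module passed the 2-fold rule, but after the GC correction only WDR43 did (-1.22), with UTP15 at -0.98, HEATR1 at -0.62 and WDR75 at -0.49. With a pseudocount of 5, too, WDR43 alone of the 4 passed (-1.46). In the UtpB module, WDR36 (8.39 and 2.15 FPKM, -1.22) and UTP18 (61.0 and 19.9 FPKM, -1.21) passed it, and WDR3 (10.98 and 4.19 FPKM, -0.85) did not.

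MPHOSPH10, a scaffold protein gene of the processome (ENSG00000124383, chromosome 2, 71130314 to 71150101, plus strand), was at 17.8 and 2.67 FPKM, a ratio of 6.67 and a relative log2 fold of -1.999. Its binding partners had smaller differences, with IMP3 at 59.6 and 37.3 FPKM (-0.30) and IMP4 at 65.6 and 33.8 FPKM (-0.58). The gap narrowed after the GC correction, which put MPHOSPH10 at -1.55, IMP4 at -1.03 and IMP3 at -0.81. UTP3, an intronless gene, was at 13.1 and 3.47 FPKM (-1.30), UTP20 at 8.10 and 2.28 FPKM (-1.11) and the GTPase gene BMS1 at 13.8 and 4.67 FPKM (-1.03). BMS1 was the member just inside the 2-fold rule, and RRP9 (16.1 and 5.93 FPKM, -0.95), a partner of the U3 snoRNA, the member just outside it. RRP12 (19.1 and 7.42 FPKM, -0.90) and NOP14 (13.98 and 6.87 FPKM, -0.57) were also outside. BMS1 has 20 named pseudogenes in GENCODE.

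The factors of late, partly cytoplasmic 40S maturation went separate ways. LTV1, an assembly factor removed before the last steps (ENSG00000135521, chromosome 6, 143843344 to 143863812, plus strand), was at 23.6 and 3.75 FPKM, a ratio of 6.29 and a relative log2 fold of -2.01. TSR1, which holds the place of a translation factor on the immature subunit, was at 30.9 and 8.25 FPKM (-1.43). NOB1, the nuclease that makes the final cut of 18S ribosomal RNA, was at 54.6 and 46.0 FPKM (0.12). NOB1 was the only member at or above the median gene, and it was below 0 after the GC correction (-0.23). The FPKM of NOB1 was 2.32 times that of LTV1 in the vector library and 12.3 times in the ATOH8 library.

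Of 14 genes of large subunit assembly, 8 were at least 2-fold lower, against 9.46% of compared genes. Their median was -1.08, with a range from -2.06 to -0.40. BRIX1 (ENSG00000113460, chromosome 5, 34915376 to 34925996, plus strand) was furthest down, at 36.6 and 6.02 FPKM, a ratio of 6.09. RRS1, which brings the 5S ribonucleoprotein into the particle, was at 41.2 and 10.6 FPKM (-1.50). BRIX1 belongs to a family of proteins with a shared RNA-binding fold, and of its other members RPF1 was at -1.60, RPF2, the partner of RRS1, at -1.45, IMP4 at -0.58 and PPAN (17.6 and 10.0 FPKM) at -0.40. After the GC correction these 4 lay closer together, at -1.13, -0.84, -1.03 and -1.01.

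The nucleolar GTPase genes GNL2 (28.7 and 8.11 FPKM, -1.35) and GNL3 (47.3 and 14.3 FPKM, -1.30), the latter encoding nucleostemin, lay close together. The 3 subunits of the PeBoW complex, which is needed to process the ribosomal RNAs of the large subunit, ranged from BOP1 (61.8 and 22.1 FPKM, -1.08) through PES1 (54.7 and 22.5 FPKM, -0.88) to WDR12 (16.1 and 7.68 FPKM, -0.62). NOP16 (-1.21), RRP15 (-1.17) and EBNA1BP2 (-1.08) completed the 8 at least 2-fold lower. NIP7 (-0.93), the RNA methyltransferase gene NOP2 (-0.79) and RRP1B (-0.49) were within 2-fold of the median gene. RRP15 was the lowest of the 44 in level, at 5.43 and 1.22 FPKM.

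In the authors' deposited table, 25 of the 44 members were marked down and 0 up, where 14.7% of the compared genes were marked down and 5.16% up. The q-values of the 25 in the authors' deposited table ran from 1.62e-10 at NPM1 to 0.0468 at UTP3. The q-values of the authors' deposited table compare the same 2 libraries, not the conditions, so they are not independent of the folds above. Among the 19 members outside the authors' deposited table were FBL, NOP10, NHP2, NOB1, PPAN, WDR12 and MYBBP1A, and also RRN3, UTP18, WDR75, HEATR1, BMS1 and BOP1, which passed the 2-fold rule. Conversely, NOP2 and RRP12 were marked down by the authors but lay outside the 2-fold rule (-0.79 and -0.90). The authors' log2 ratios for them (-1.18 and -1.36) were not relative to the median gene.

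**Figure D2:**
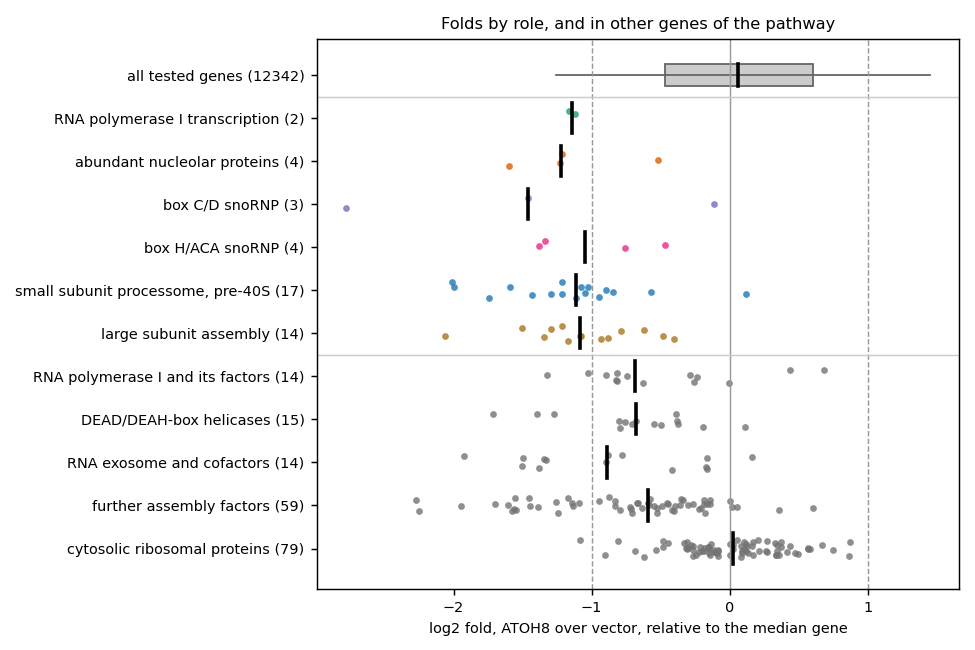
Relative log2 fold of every gene, by role for the 44 members (coloured) and by list for other genes of the pathway (grey), with black bars at medians; for the 12342 compared genes the box spans the 25th to 75th percentile and the line the 5th to 95th. Dashed lines mark 2-fold, and the members' groups have medians between -1.46 and -1.05 while the ribosomal protein genes centre on 0.02.

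Other genes of the same pathway were lower by smaller amounts in the median. Because members and lists were chosen with earlier results of these data known, this difference is a description only. Of 15 nucleolar DEAD- and DEAH-box helicases, 3 passed the 2-fold rule downward and 0 upward (median -0.68), namely DDX18 (39.4 and 8.60 FPKM, -1.71), DDX21 (65.0 and 18.6 FPKM, -1.39) and DDX52 (17.9 and 5.10 FPKM, -1.27). DDX31 was next, at -0.80. Of 14 RNA exosome subunits and cofactors, the machinery that trims precursor ends, 6 passed downward and 0 upward (median -0.89), with the lowest folds at EXOSC8 (26.1 and 4.57 FPKM, -1.93), MPHOSPH6 (-1.51), the helicase gene SKIV2L2 (-1.50) and the nuclease gene DIS3 (-1.38). Of 59 further assembly factors, 18 passed downward and 0 upward (median -0.59). NOL11 (44.5 and 6.32 FPKM, -2.28), KRR1 (16.9 and 1.92 FPKM, -2.25), NOL10 (31.7 and 5.62 FPKM, -1.94) and LYAR (13.3 and 2.44 FPKM, -1.70) were furthest down. The 79 cytosolic ribosomal protein genes, the building blocks that these factors assemble, had a median of 0.02. Only RPL7 of them was at least 2-fold lower (1342 and 493 FPKM, -1.08) and 0 were at least 2-fold higher. RPS27A (-0.90), RPL13A (0.87) and RPL13 (0.87) were next in size. Their summed FPKM was 76574 in the vector and 64521 in the ATOH8 library, a ratio of 1.19, beside 2.60 for the 44 members. After the GC correction the median was -0.91 for the helicases (4 passing), -0.89 for the exosome list (4) and -1.17 for the members. It was -0.74 for the further factors (15) and -0.10 for the ribosomal protein genes (0). Of compared genes, 12.8% passed upward before the correction and 8.39% after it, and 9.46% and 5.98% passed downward. DDX21 (-0.93), DDX52 (-0.72), MPHOSPH6 (-0.87), SKIV2L2 (-0.92), DIS3 (-0.78) and RPL7 (-0.51) no longer passed.

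Folds in these libraries followed the GC content of the transcript, and the members' folds moved with it too. GC content was that of the longest protein-coding transcript in GENCODE 29, known for all 44 members. Across the 44 members, Pearson's r between relative fold and GC content was 0.45 and Spearman's rho 0.41, and across 12313 compared genes they were 0.52 and 0.55. These are correlations across genes of the same 2 libraries, which are not independent replicates. The members' median GC content was 47.2%, against 48.8% for compared genes.

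Within classes of like GC content the members also had lower folds than compared genes. Below 40% GC, 4 of 5 members were at least 2-fold lower, WDR3 the exception, against 29.99% of 1827 compared genes. That share was the highest of any class. The members' median there was -1.17 and that of compared genes -0.66. After the GC correction none of these members passed, with UTP15 at -0.98, WDR36 at -0.54, WDR75 at -0.49, RRP15 at -0.43 and WDR3 at -0.27. In the class from 40 to 45% GC, which held 14 members, NOP58, LTV1, MPHOSPH10 and BRIX1 among them, 12 were at least 2-fold lower, against 16.3% of 2582 compared genes. From 45 to 50% it was 7 of 8 members, NOP10 the exception, against 5.25% of 2134 genes. From 50 to 55% it was 3 of 6 members, against 2.24% of 1960 genes. At 55% GC and above it was 3 of 11 members, NOP56, RRS1 and BOP1, against 1.05% of 3810 genes. In that class the members' median was -0.88 and that of compared genes 0.53. All 44 members lay below the median of genes in the same 2% step of GC content, 41 lay below the 25th percentile (all but WDR3, NOB1 and WDR12) and 30 below the 10th.

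After a smoothed curve of fold on GC content was subtracted, 27 of 44 members were at least 2-fold lower, against 5.98% of compared genes, and 0 at least 2-fold higher, against 8.39%. The median was then -1.17, and all 44 were below 0, against 50.3% of compared genes. Across the 44, the corrected fold still went with GC content, now in the opposite direction (Pearson's r -0.34, Spearman's rho -0.37). The order of corrected folds is therefore not free of GC content. The correction changed which members passed the 2-fold rule. The 9 that no longer passed were RRN3, NPM1, UTP15, UTP20, WDR36, WDR75, HEATR1, BMS1 and RRP15. The 7 that passed only after it were MYBBP1A, NHP2, RRP9, RRP12, PES1, NOP2 and PPAN. Among small subunit factors 8 of 17 then passed, with WDR36 at -0.54 and RRP9 at -1.50, and among large subunit factors 10 of 14, with RRP15 at -0.43, BOP1 at -1.74 and PES1 at -1.35. NOP58 stayed furthest down at -2.33, followed by RRS1 at -1.91 and NOP56 at -1.86. Whether the GC trend has a technical or another source was not tested.

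**Figure D3:**
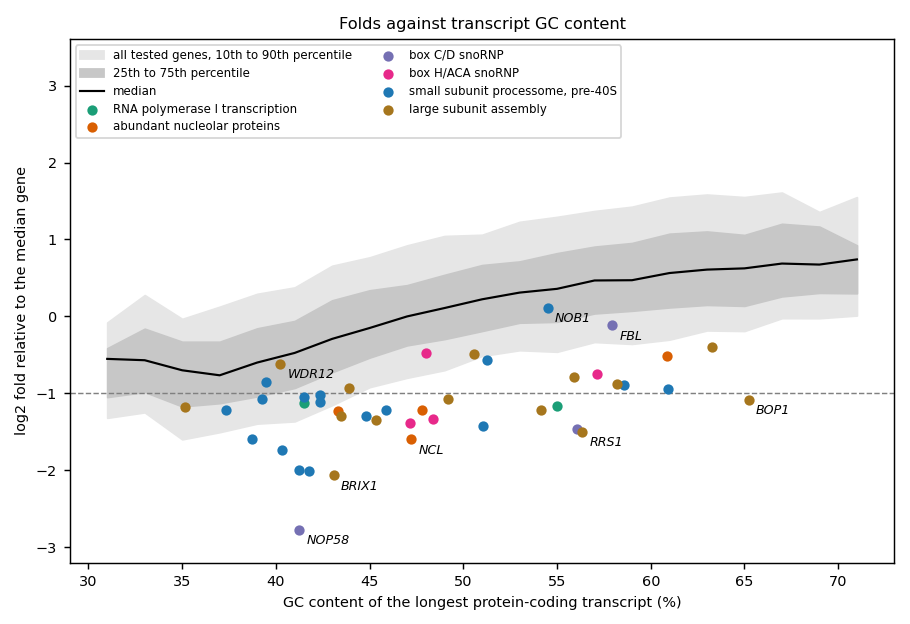
Relative log2 fold against transcript GC content for the 44 members (points, coloured by role), over the median, the 25th to 75th and the 10th to 90th percentile of the compared genes in steps of 2% GC. Every point lies below the black median line, and the dashed line marks 2-fold lower.

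Length and level did not order the members. Across the 44, the Spearman rho of fold with transcript length was 0.01 and with the vector FPKM -0.07. The order of the levels was largely kept between libraries, with a rho of 0.89 between the log2 FPKM of the 44 genes in the vector and ATOH8 libraries.

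Several of these genes carry snoRNAs in their introns, so that their precursor transcripts also supply guide RNAs. GENCODE 29 places at least 1 snoRNA on the same strand within 8 members: NCL, NOP56, NOP58, DKC1, WDR43, TSR1, GNL3 and PPAN. NOP58 holds SNORD11, SNORD11B and SNORD70 among others, and NOP56 holds SNORD56, SNORD57, SNORD86, SNORD110 and SNORA51. Of the 8 hosts, 7 were at least 2-fold lower, all but PPAN, with a median of -1.45. Of the other 36 members, 22 were, with a median of -1.08. After the GC correction all 8 hosts passed, PPAN at -1.01, and 19 of the other 36. Among compared genes the share was 9.46% before the correction and 5.98% after it. This difference between hosts and the rest carries no test.

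For 21 of the 44 members the file's locus also spanned another listed gene, so the authors' estimates could have divided reads between neighbours. PPAN overlaps the readthrough gene PPAN-P2RY11, which was at 1.01 and 0.875 FPKM. Of the 23 members alone at their locus, 16 were at least 2-fold lower, with a median of -1.21, against 10.0% of compared genes alone at theirs. Of the 21 members that shared their locus, 13 were, with a median of -1.08, against 9.46% of all compared genes. The share of mitochondrial transcripts in the summed FPKM, leaving out MT-CO1, was 14.4% for vector and 24.2% for ATOH8, and its part in the members' folds was not tested. On a scale that left those transcripts out and used no centring, the members' median log2 fold was -1.34, against -0.10 for compared genes.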

How the data were processed

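Gene levels were taken from 2 RNA sequencing libraries of A549 cells, 1 per group by the treatment label. For each library the authors deposited a table of FPKM by gene, per the file headers. The submitters' processing notes name CASAVA, HISAT2, Cufflinks 2.2.1 and hg38 (GRCh38) without roles. Annotation release, strand setting and number of reads were not given in the sources used here. Low FPKM scaled by length piled up between 0.025 and 0.03 in both libraries but not in separate steps, so whole fragments were not recovered, and no counting interval can be given. The authors' deposited table of 2747 genes holds, per the file headers, log2 ratios with their p-values and q-values. Its 2 columns of per-library FPKM match no label and were not used.

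Tables were joined by gene identifier and summed by symbol (Python 3.11.15, pandas 2.3.3). Folds used a pseudocount of 1, and 12342 genes passed a filter on the mean FPKM (1 or more). The GC and length corrections subtracted a lowess curve (fraction 0.3, statsmodels 0.14.6), with GC content from GENCODE 29 for 99.8% of these genes. The calculation was tested on simulated data. No test was run between groups. All 44 members are named by rule, with at most 4 genes of each other list, of largest absolute fold; IMP3, IMP4, RPF1, RPF2, SNU13, MYC and the readthrough gene were added as partners after values were seen. The members and lists were chosen with earlier results of these data known. The alternatives tried were pseudocounts of 0.1 and 5, dropping the filter or raising it to 5 FPKM, other centrings and scalings, the highest row of a shared symbol, both corrections, and members alone at their locus.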

Additional observations from a re-analysis of the deposited data

How the results depend on the processing

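The count of members at least 2-fold lower (29) stayed between 27 and 36 and the median log2 fold (-1.14) between -1.12 and -1.50 under every planned setting except 2. With a pseudocount of 5, which shrinks low genes, 18 members were at least 2-fold lower, against 4.25% of compared genes, and the median was -0.88. With members whose locus holds another gene left out, the count was 16 of the 23 remaining, against 10.0% of compared genes alone at their locus. No setting put a member at least 2-fold higher. Across the settings that rescale or correct a fold, 17 members were at least 2-fold lower in each: NCL, NOLC1, NOP56, NOP58, DKC1, WDR43, UTP18, MPHOSPH10, TSR1, LTV1, NOP16, RRS1, BOP1, GNL2, GNL3, BRIX1 and EBNA1BP2. NOB1 (0.12) was at -0.24 with the FPKM as deposited and at -0.0050 as TPM without mitochondrial genes, scales without centring on which the median compared gene was at -0.30 and -0.10, so it was above that gene on both. It was at -0.23 GC-corrected and -0.042 length-corrected, and the cause was not tested. No paired analysis was possible because each group has 1 library, and for the same reason no replicate could be left out. Unknown depth leaves the counting error of low members such as RRP15 and WDR36 unmeasured.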

Other observations

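The relatives of members given here were chosen after values had been seen. NPM3, a paralog of NPM1, was at 55.9 and 37.8 FPKM (vector, then ATOH8; relative log2 fold -0.19), beside -1.23 for NPM1. GNL1 (8.50 and 8.01 FPKM, 0.28) and GNL3L (6.09 and 4.52 FPKM, -0.00) are GTPase relatives of GNL2 (-1.35) and GNL3 (-1.30). RRP1 (11.2 and 4.56 FPKM, -0.77) had a lower fold than its paralog RRP1B (-0.49). The pseudogenes RRN3P1 (1.93 and 1.27 FPKM) and RRN3P3 (1.09 and 1.31 FPKM) were low in both libraries, beside 24.3 and 8.05 FPKM for RRN3.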
